A study of Saccharomyces pastorianus Weihenstephan 34/70 with 7 samples.

Results

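The genes described here are 10 genes of glycogen synthesis and breakdown in the lager yeast Weihenstephan 34/70 (Saccharomyces pastorianus), chosen by name (GSY1, GSY2, GLG1, GLG2, GLC3, GPH1, GDB1, GAC1, PGM2 and UGP1) from 5635 Saccharomyces cerevisiae genes on the array. All 10 were named in the probe annotation and each was read by 1 probe set. No filter on low signals was applied, so all 10 entered the tests. Transcript levels were measured in stationary phase cells from fermentations of 21 °Plato wort, a gravity above that of ordinary beer wort. The wort contained either maltose or glucose syrup, with or without Flavourzyme, a fungal peptidase mixture that releases amino acids and small peptides from wort protein. The groups were maltose wort with Flavourzyme (1 array), maltose control (2 arrays), glucose wort with Flavourzyme (2 arrays) and glucose control (2 arrays), and 1 yeast strain was used throughout. No second array of the maltose Flavourzyme group was used here. According to the study's text, the time of sampling varied with the wort and with the addition of Flavourzyme, so the effect of either one and that of sampling time cannot be told apart. Nothing in the labels says that duplicates came from separate fermentations, and the p-values therefore measure only the spread between these samples, which may be technical.

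Glycogen is a branched glucose polymer that yeast stores when growth slows and draws on when carbon runs out. Glucose 6-phosphate is turned into glucose 1-phosphate by phosphoglucomutase and into UDP-glucose by UDP-glucose pyrophosphorylase, glycogenin starts a chain, glycogen synthase lengthens it and the branching enzyme adds branches. Breakdown is carried out by glycogen phosphorylase together with the debranching enzyme. Synthase and phosphorylase are switched in opposite directions by phosphorylation, and the pathway genes are known to be induced as yeast cells enter stationary phase.

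Signals are given as log2 values after robust multi-array averaging (RMA), so a difference of 1 is a 2-fold change. A probe set's signal depends on its probes as well as on its transcript, and levels were compared between arrays only. The array is designed on S. cerevisiae, while lager yeast is a hybrid of S. cerevisiae and S. eubayanus, and the 2 parental copies of a gene were not separated. In RNA of whole cultures, fewer cells that express a gene and less RNA of it per cell cannot be told apart. The background level was taken from 4962 annotated probe sets not assigned to a single S. cerevisiae gene, mainly those of the fission yeast S. pombe. It was their 95th percentile, at 4.96 for the mean over 7 arrays and 4.76 to 5.24 on single arrays. The 10 stationary phase and stress genes used as a check of the labelled state, among them HSP12 and HSP26, were above background on every array. Only 4.74% of all genes had a mean under the background level, and no array of another phase was used. The check therefore cannot tell stationary phase from another phase. Across genes, the duplicates of glucose wort with Flavourzyme correlated at 0.988, those of the glucose control at 0.928 and those of the maltose control at 0.997, so the glucose control replicates were the least alike.

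Among these genes GSY1 differed most between the worts. It encodes 1 of the isoforms of glycogen synthase and was about 6-fold lower in maltose than in glucose wort. GLC3, the branching enzyme gene, was lower in maltose wort by a smaller amount. For wort, GSY1 passed both the adjusted p and the fold threshold, as did 8.8% of all genes. GLC3 passed the adjusted p but not the fold threshold, and 34.3% of all genes passed that adjusted p. The other 8 genes did not pass the adjusted p for wort. None of the 10 passed the test for Flavourzyme, against 0.0355% of all genes.

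GSY1 had a signal of 10.30 in maltose wort with Flavourzyme, 9.10 and 8.99 in the maltose controls, 13.00 and 12.72 in glucose wort with Flavourzyme and 11.50 and 11.90 in the glucose controls. All 3 maltose arrays lay below all 4 glucose arrays, and within each wort the Flavourzyme arrays lay above the controls. The wort effect, the mean of the maltose groups minus the mean of the glucose groups, was -2.61 on the log2 scale (SE 0.18, 95% interval -3.05 to -2.16), a signal 6.09-fold lower in maltose wort (limma, adjusted p = 0.00381). It was nearly the same size in both levels of Flavourzyme, at -2.56 with Flavourzyme (SE 0.28, adjusted p = 0.0440) and -2.66 without it (SE 0.23, adjusted p = 0.00605). Of the 5635 genes, 34 had a lower wort effect than GSY1. The call was lost without replicate 2 of glucose wort with Flavourzyme and without maltose control replicate 1 or replicate 2. Nearly all calls over all genes were lost in those fits too, and the effect of GSY1 kept its size (-2.68, -2.63 and -2.58). Without Flavourzyme the call was also lost when either maltose control was left out. With Flavourzyme it was lost when any array of glucose wort with Flavourzyme or of the maltose control was. Nearly all calls over all genes were again lost in these fits. With 1 array left out the effect of GSY1 was -2.86 to -2.46 without Flavourzyme and -2.70 to -2.42 with it. The call with Flavourzyme was lost in the 2-way test without moderation as well (adjusted p = 0.0885), and with a replicate block.

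With GSY1, 1 of the 10 genes was called for wort at an adjusted p under 0.05 and a log2 fold change over 1.30, against 8.8% of all genes, and the share called lower was 3.57% of all genes. At the adjusted p alone, 2 of the 10 passed, both lower (GSY1 and GLC3), against 34.3% of all genes in either direction and 11.3% lower. The median wort effect was -0.02 over the 10 genes and 0.26 over all genes, in the deposited scaling. Relative to that median, the wort effect of GSY1 was -2.87 and that of GLC3 was -0.87. The median of all genes was 0.07 when the S. cerevisiae probe sets alone were quantile normalized again and 0.11 when arrays were centred on the median gene. The calls over all genes were then mostly lower in maltose wort (127 higher and 263 lower, and 176 higher and 282 lower), against 295 higher and 201 lower in the deposited scaling, while GSY1 stayed lower (-2.68 and -2.76).

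GLC3 read 13.38 in maltose wort with Flavourzyme, 13.47 and 13.59 in the maltose controls, 14.02 and 14.15 in glucose wort with Flavourzyme and 14.01 and 14.09 in the glucose controls. The maltose arrays again lay below all glucose arrays, while with Flavourzyme the signal was slightly below the controls in maltose wort and overlapped them in glucose wort. Its wort effect of -0.61 (SE 0.15) was 1.53-fold and passed the adjusted p (0.0274), but not the fold threshold, and over the 14 alternatives its adjusted p ran from 0.00301 to 0.156. Within each level of Flavourzyme it was -0.70 with Flavourzyme (adjusted p = 0.110) and -0.52 without it (adjusted p = 0.0830), neither past the threshold. Both passed once either glucose control replicate was left out (adjusted p = 0.0115 with Flavourzyme, and 0.0177 and 0.0412 without it), but so did 54.1% of all genes with Flavourzyme and 66% and 48.9% without it. GSY1 and GLC3 were the 2 of 10 genes whose maltose arrays all lay below the glucose arrays, a pattern held by 14.2% of all genes, and none had all maltose arrays above, against 26.9%. The mean signal of 10 ribosomal RNA probe sets moved the same way, at 9.36 in maltose wort with Flavourzyme, 8.56 and 8.57 in the maltose controls, 13.2 and 12.1 in glucose wort with Flavourzyme and 11.1 and 11.6 in the glucose controls. Its part in the wort effects of GSY1 and GLC3 was not tested.

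**Figure D1:**
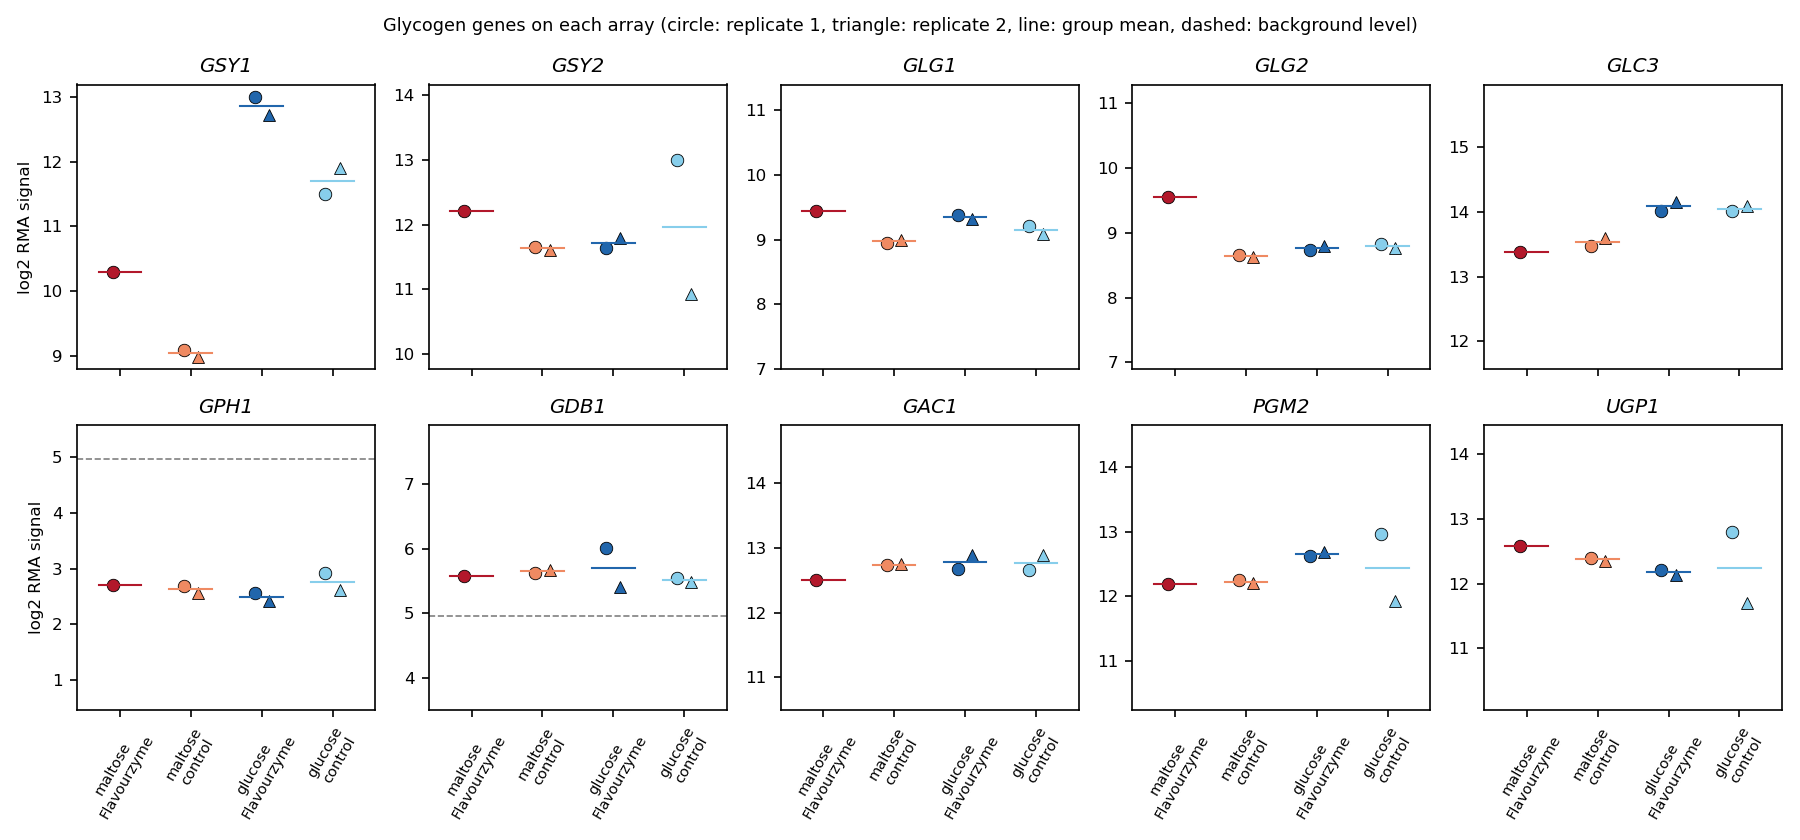
Log2 RMA signal of the 10 glycogen genes in the 4 groups, with circles for replicate 1, triangles for replicate 2, short lines for group means and a dashed line at the background level of 4.96. Panels of GSY1 to GLC3 and GDB1 to UGP1 have y axes of about the same span. GSY1 runs between 8.99 and 13.00 with all maltose arrays lowest, the glucose control replicates of GSY2, PGM2 and UGP1 lie far apart, and GPH1 stays below the dashed line.

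GSY2 encodes the other synthase isoform, the one known in S. cerevisiae as the main form of stationary phase. Its signal was 12.20 in maltose wort with Flavourzyme, 11.66 and 11.62 in the maltose controls, 11.64 and 11.79 in glucose wort with Flavourzyme and 13.00 and 10.93 in the glucose controls. The highest and the lowest of its 7 values were thus the duplicates of 1 group, and no comparison of GSY2 was called with all arrays in the fit. For the comparisons that use no glucose control array, wort with Flavourzyme (0.49) and Flavourzyme in maltose wort (0.57), GSY2 passed once either glucose control replicate was left out of the fit, together with 54.1% and 38.4% of all genes. The wort effect of GSY2 was 0.08 with a 95% interval from -1.16 to 1.32 (SE 0.50, limma adjusted p = 0.910), and its sign turned with the glucose control replicate that was left out, at 0.60 without replicate 1 and -0.44 without replicate 2.

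Because the pair encodes the same enzyme activity, the difference between their signals was followed from array to array. The GSY1 signal minus the GSY2 signal was -1.90 in maltose wort with Flavourzyme, -2.56 and -2.63 in the maltose controls, 1.35 and 0.93 in glucose wort with Flavourzyme and -1.50 and 0.97 in the glucose controls. Every maltose array lay below every glucose array, as for GSY1 alone, so this order is not independent of the GSY1 result. Because the probes of the isoforms differ, the sign of this difference does not say which transcript was more abundant, and only its shift between arrays was read.

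The glycogenin genes GLG1 and GLG2, whose products start new glycogen chains, were steady across most arrays. They were the 2 of 10 genes whose maltose array lay above the glucose arrays with Flavourzyme while the maltose arrays lay below without it. Opposite orders of this kind were found for 13.3% of all genes. GLG1 had signals of 9.44 in maltose wort with Flavourzyme, 8.96 and 9.00 in the maltose controls, 9.38 and 9.32 in glucose wort with Flavourzyme and 9.21 and 9.09 in the glucose controls. GLG2 had signals of 9.56 in maltose wort with Flavourzyme, 8.66 and 8.63 in the maltose controls, 8.74 and 8.80 in glucose wort with Flavourzyme and 8.83 and 8.77 in the glucose controls. The other 6 GLG2 values lay between 8.63 and 8.83, below the single array of maltose wort with Flavourzyme.

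The difference of GLG2 between that array and the maltose controls was 0.91 (SE 0.22, limma adjusted p = 0.0867), and between it and glucose wort with Flavourzyme 0.79 (SE 0.22, adjusted p = 0.0855). Neither passed, both rest on 1 array, and that array is assumed in the fit to vary like the other groups. Both passed without either glucose control replicate (adjusted p = 0.00635 and 0.00581), where 38.4% and 54.1% of all genes passed. For GLG1 the corresponding values were 0.46 (adjusted p = 0.290) and 0.08 (adjusted p = 0.811), and the second value became negative when the arrays were centred on the median gene (-0.11) or when the S. cerevisiae probe sets alone were quantile normalized again (-0.05). The first value of GLG1 also passed without either glucose control replicate. Under the repeated quantile normalization the first value of GLG2 passed, as did 7.51% of all genes, and that of GLG1 did not.

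Flavourzyme was the other factor of the design. None of the 10 genes was called for the Flavourzyme effect, the mean of the Flavourzyme groups minus the mean of the controls, against 0.0355% of all genes, and 2 had an unadjusted p under 0.05 (GSY1 and GLG2), against 16% of all genes. No member passed in the 2-way test without moderation either. The median effect was 0.07 over the 10 genes and -0.08 over all genes.

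GSY1 had the largest of the 10 effects of Flavourzyme, a signal 2.31-fold higher with the enzyme mixture (log2 1.21, SE 0.18, 95% interval 0.76 to 1.65). Its unadjusted p was 0.000617, but its adjusted p of 0.186 missed the threshold. The difference was 1.26 in maltose wort (SE 0.28, adjusted p = 0.0795) and 1.16 in glucose wort (SE 0.23, adjusted p = 0.701). The interaction, the first of these minus the second, was 0.10 with a 95% interval from -0.79 to 0.99 (adjusted p = 0.914). Without glucose control replicate 2 the Flavourzyme effect of GSY1 passed at 1.31 (adjusted p = 0.00777), where 0.799% of all genes did. Without replicate 1 or replicate 2 of that group, its difference passed in maltose wort (adjusted p = 0.00604) and in glucose wort (0.96 and 1.36, adjusted p = 0.0400 and 0.00780), where 38.4% of all genes passed in maltose wort and 9.99% and 33.3% in glucose wort. A total of 23 genes had a higher Flavourzyme effect. The ribosomal RNA signal was also higher with Flavourzyme, at 9.36 against 8.56 and 8.57 in maltose wort and 13.2 and 12.1 against 11.1 and 11.6 in glucose wort, and its part in the GSY1 values was not tested.

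GSY1 and GLG1 were the 2 of 10 genes with every Flavourzyme array above the controls of the same wort in both worts, which held for 3.85% of all genes, and none had every Flavourzyme array below, against 7.91%. For GLG1 the Flavourzyme effect was 0.33 (SE 0.14, limma adjusted p = 0.332). For GLG2 it was 0.44 (SE 0.14, adjusted p = 0.250), and without the maltose Flavourzyme array, where only glucose wort remains, it was -0.03.

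Within single worts, none of the 10 was called for Flavourzyme in maltose wort, against 1.99% of all genes, and 2 (GSY1 and GLG2) had an unadjusted p under 0.05, against 22.1%. None was called in glucose wort either, against 0% of all genes, with 1 (GSY1) at an unadjusted p under 0.05, against 6.97%. For the interaction none was called, against 0.0355% of all genes, with GLG2 alone at an unadjusted p under 0.05, against 19.1%. For the wort effect within each level of Flavourzyme, 1 gene, GSY1, was called with Flavourzyme, against 2.91% of all genes (1.1% lower), and the same gene without it, against 28.6% (9.81% lower). These comparisons share arrays and are not independent of each other.

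**Figure D2:**
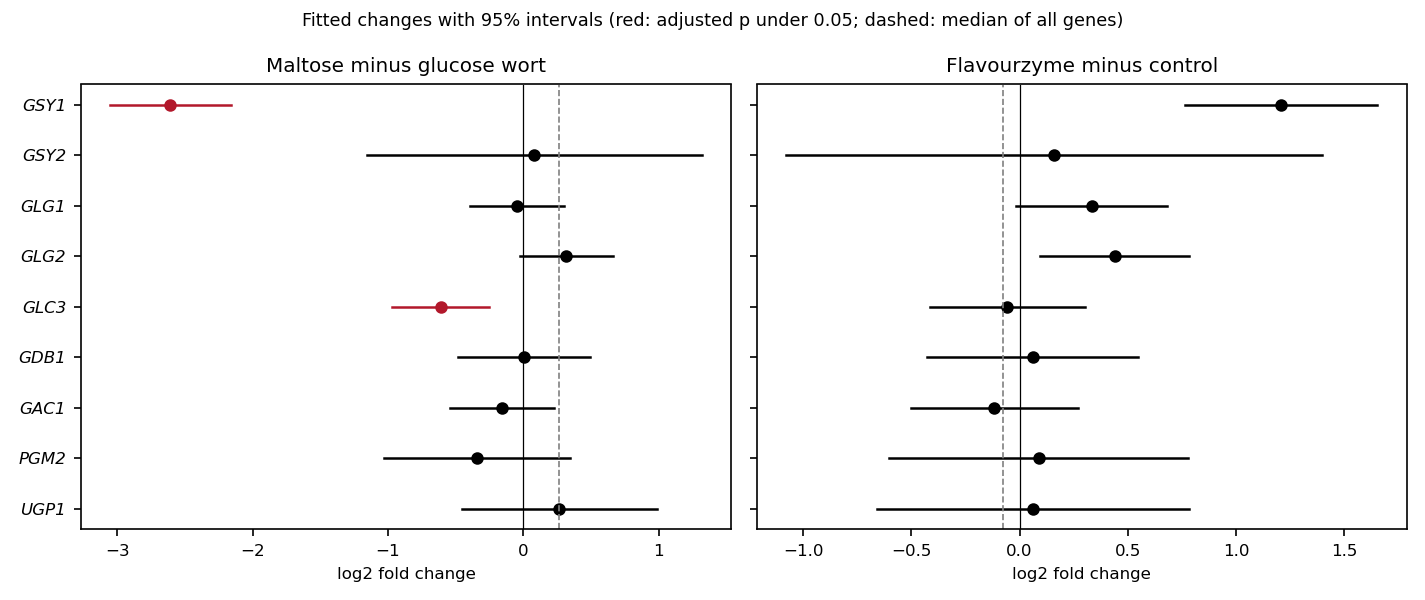
Fitted log2 fold change of 9 glycogen genes with 95% intervals, for maltose minus glucose wort on the left and Flavourzyme minus control on the right, with red where the adjusted p was under 0.05 and a dashed line at the median of all genes. GPH1 is not drawn because it was under the background level on every array. For wort the intervals of GSY1 and GLC3 lie wholly below 0, and for Flavourzyme the intervals of GSY1 and GLG2 lie above 0 although no adjusted p passed.

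The enzymes that supply UDP-glucose differed more between the glucose control replicates than between the groups. PGM2, the major phosphoglucomutase, had signals of 12.19 in maltose wort with Flavourzyme, 12.25 and 12.20 in the maltose controls, 12.63 and 12.69 in glucose wort with Flavourzyme and 12.97 and 11.92 in the glucose controls. UGP1, the UDP-glucose pyrophosphorylase gene, had signals of 12.57 in maltose wort with Flavourzyme, 12.40 and 12.36 in the maltose controls, 12.21 and 12.14 in glucose wort with Flavourzyme and 12.80 and 11.70 in the glucose controls. For both genes, as for GSY2, the highest and the lowest array were the duplicates of the glucose control.

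The wort effect was -0.34 for PGM2 (95% interval -1.03 to 0.35, limma adjusted p = 0.356) and 0.26 for UGP1 (95% interval -0.46 to 0.99, adjusted p = 0.491). Without glucose control replicate 1 or 2 the wort effect was -0.08 or -0.60 for PGM2 and 0.54 or -0.01 for UGP1. The Flavourzyme effects were 0.09 for PGM2 and 0.06 for UGP1, with intervals reaching at least 0.60 either side of 0. They were 0.35 and 0.34 without glucose control replicate 1 but -0.17 and -0.21 without replicate 2, so no direction was read.

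Replicate 1 of the glucose control exceeded replicate 2 by 2.06 for GSY2 (4.18-fold), 1.10 for UGP1 and 1.04 for PGM2. The duplicates of the other groups differed by at most 0.14 for these 3 genes. GSY1 went the other way, with replicate 1 lower by 0.40, and GLC3, GLG1, GLG2 and GDB1 differed by 0.12 or less. The same replicate was higher for genes of trehalose, the other storage carbohydrate of yeast, at 1.29 for the synthase gene TPS1, 1.26 for TPS2 and 1.30 for TSL1. Of the 10 stationary phase and stress genes, 3 were higher in it by over 1, namely HSP12 (2.06), the catalase gene CTT1 (3.19) and GRE1 (1.29). Others of that list were not, with HSP26 at 0.01, SSA3 at -0.12 and SNZ1 at -0.51, and the stress factor gene MSN4 was at -0.99. Of all genes, 15.5% were higher by over 1 in replicate 1 and 6.02% were lower by over 1. Which of the glucose control arrays is closer to a typical culture cannot be read from a pair.

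**Figure D3:**
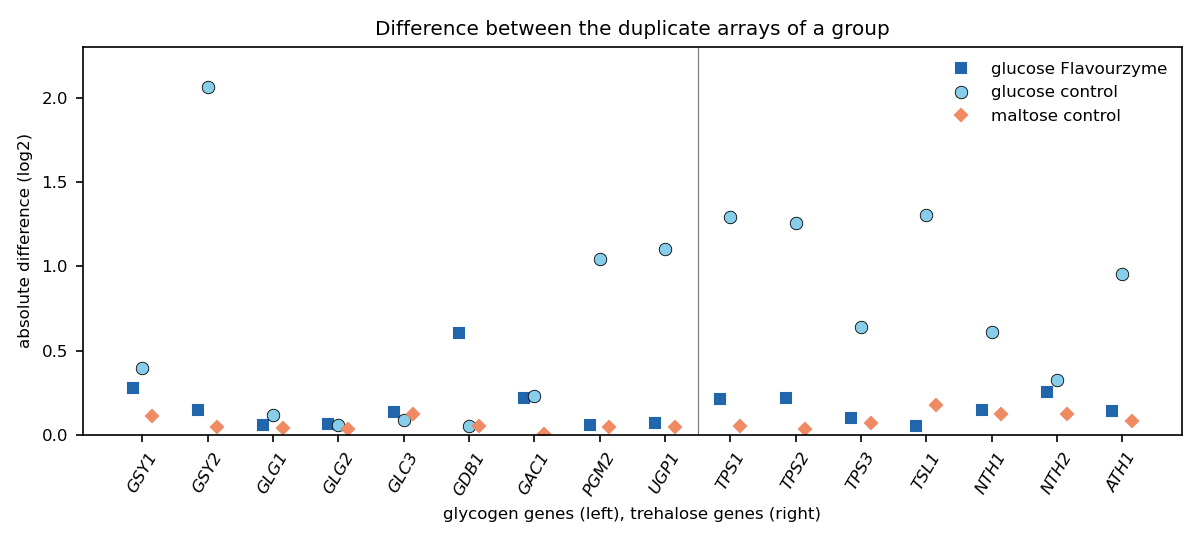
Absolute log2 difference between the duplicate arrays of a group, for 9 glycogen genes on the left of the vertical line and 7 trehalose genes on the right, with squares for glucose wort with Flavourzyme, circles for the glucose control and diamonds for the maltose control. The glucose control stands out for GSY2 at 2.06, for UGP1 and PGM2 at 1.10 and 1.04 and for TPS1, TPS2 and TSL1 near 1.3, whereas GSY1 differs by 0.40 there.

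GAC1 encodes a regulatory subunit that brings the protein phosphatase Glc7 to glycogen, where it activates the synthase. Of the 9 genes above background it had the smallest range, with 12.50 in maltose wort with Flavourzyme, 12.74 and 12.75 in the maltose controls, 12.68 and 12.89 in glucose wort with Flavourzyme and 12.66 and 12.89 in the glucose controls. Its wort effect was -0.16 (95% interval -0.54 to 0.23) and its Flavourzyme effect -0.12 (95% interval -0.50 to 0.27).

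The signals of the breakdown genes lay below or just above background. GPH1, the glycogen phosphorylase gene, had 2.71 in maltose wort with Flavourzyme, 2.69 and 2.57 in the maltose controls, 2.56 and 2.42 in glucose wort with Flavourzyme and 2.91 and 2.61 in the glucose controls. It was below the background level of every array, as were 3.25% of all genes, so no fold change is given. GDB1, the debranching enzyme gene, had 5.58 in maltose wort with Flavourzyme, 5.62 and 5.67 in the maltose controls, 6.01 and 5.41 in glucose wort with Flavourzyme and 5.54 and 5.49 in the glucose controls. It lay just above background on every array, and its groups overlapped. The wort effect of GDB1 was 0.00 in the deposited scaling and -0.58 when the S. cerevisiae probe sets alone were quantile normalized again, so no direction was read.

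In S. cerevisiae GPH1 and GDB1 both lie on the right arm of chromosome XVI, and their neighbours were looked at after their low signals had been seen. Of 27 named genes from GPH1 to RPC82 in the gene order of S. cerevisiae, 23 had a mean signal below background, with TIF3, RHO1, DPM1 and GDB1 above it. Among 37 genes on the side of GPH1 away from that stretch, 2 were below background (RRG8 and CLB2), as were 0 of 6 genes beyond RPC82. Over all genes the share was 4.74%. At both ends of the stretch the mean signals crossed the background level from a gene to its neighbour, with KRE6 at 10.8 and GPH1 at 2.64, and with RPC82 at 2.80 and QCR2 at 12.9. The stretch was drawn after the signals were seen. The crossings at its ends and the contrast in counts therefore follow in part from where it was drawn. Why the stretch was low was not tested, and a low signal from these probes does not say that lager yeast lacks phosphorylase transcript.

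**Figure D4:**
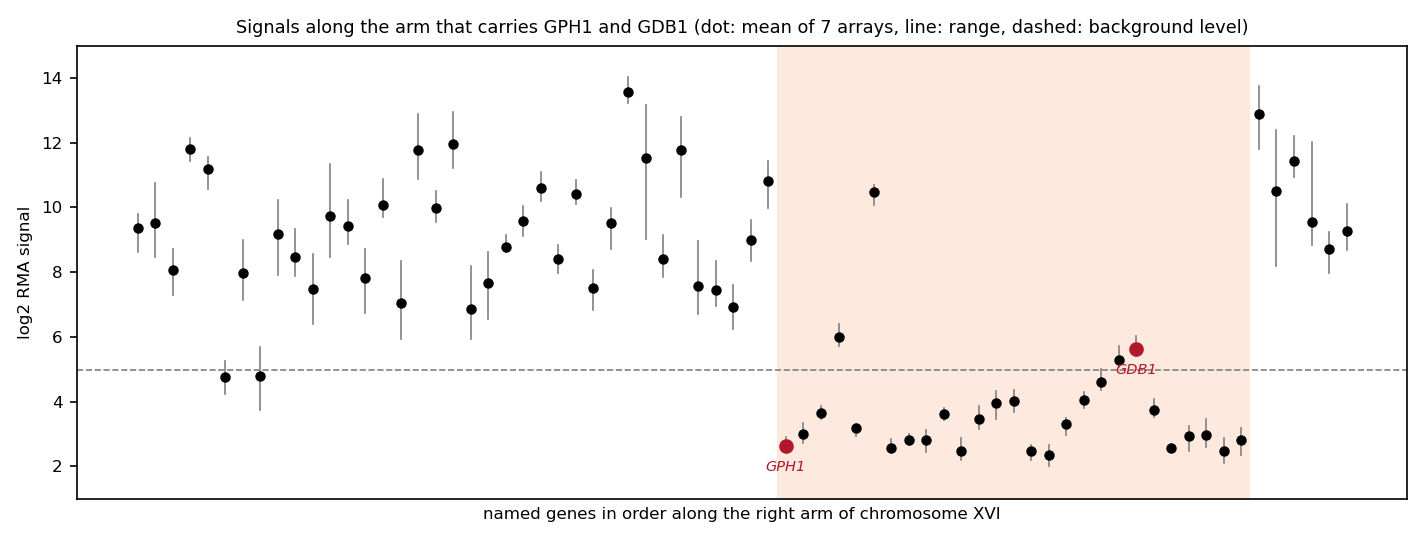
Log2 RMA signal of 70 named genes in their S. cerevisiae order along the right arm of chromosome XVI, with dots for the mean of 7 arrays, vertical lines for the range over arrays, red for GPH1 and GDB1 and a dashed line at the background level of 4.96. The shaded stretch, drawn after the signals were seen, holds the 27 genes from GPH1 to RPC82, 23 of them below the dashed line.

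The genes acting on glycogen enzymes and the neighbouring sugar phosphate enzymes formed 6 further lists with 45 genes, of which 43 were measured. Their counts for wort stand beside 8.8% of all genes called with the fold threshold and 34.3% at the adjusted p alone. In the phosphatase list, 1 of 5 genes was called for wort: PIG1, a relative of GAC1, was higher in maltose wort by 1.55 (SE 0.34, limma adjusted p = 0.0231), at 8.09 in maltose wort with Flavourzyme, 8.38 and 8.10 in the maltose controls and 6.12 to 7.40 in the 4 glucose arrays. Quantile normalizing the S. cerevisiae probe sets alone brought it to 1.03, under the fold threshold, as did leaving out glucose control replicate 2 (1.23). Its adjusted p was 0.0510 to 0.102 without the maltose Flavourzyme array or with 1 array left out of the maltose control or of glucose wort with Flavourzyme, and 0.111 in the 2-way test without moderation. The phosphatase gene GLC7 itself was not called in any comparison.

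Of 9 kinase genes none was called for wort, while SNF1 (0.76) and SNF4 (1.11), the catalytic and an activating subunit of the kinase needed to release glucose repression, were higher in maltose wort at the adjusted p alone (0.0278 and 0.0115). PHO85, whose kinase phosphorylates the synthase in S. cerevisiae, was called for Flavourzyme in maltose wort. It read 9.37 in maltose wort with Flavourzyme against 10.95 on both maltose controls, a difference of -1.58 (SE 0.22, adjusted p = 0.0435). This rests on the single array, and the call was lost in the 2-way test without moderation (adjusted p = 0.0657) and with a replicate block. Without 1 maltose control or 1 array of glucose wort with Flavourzyme the call was lost as well, as were the calls of all other genes. With 1 array left out the difference stayed at -1.59 to -1.58.

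Among 6 measured genes of protein kinase A and stress signalling, the stress transcription factor gene MSN4 was called for wort. It was lower in maltose wort by 1.84 (SE 0.27, limma adjusted p = 0.0109), a call lost in the 2-way test without moderation (adjusted p = 0.0650). The call was also lost with 1 array left out of the maltose control or of glucose wort with Flavourzyme. Nearly all calls over all genes were lost in those fits. RIM15, a kinase gene of entry into quiescence, was higher by 0.95 and passed the adjusted p (0.0116) but not the fold threshold. Of 6 measured sugar phosphate and glycogen enzymes, 1 was called for wort: the hexokinase gene HXK2 at -1.45 (adjusted p = 0.0338). That value came from 1 array, since HXK2 read 7.53 in maltose wort with Flavourzyme and 10.23 and 10.15 in the maltose controls, and without that array the wort effect was 0.11. HXK1, another hexokinase gene, passed the adjusted p for wort at -1.13 (0.0113), but without the maltose Flavourzyme array the value was -0.62 (adjusted p = 0.0791). It was called with Flavourzyme at -1.63 (adjusted p = 0.0458). That call was lost in the 2-way test without moderation (adjusted p = 0.107) and with a replicate block. It was also lost with 1 array left out of the maltose control or of glucose wort with Flavourzyme. In those fits the value stayed at -1.63, and the calls of all other genes were lost as well. None of the 7 trehalose genes was called in any comparison. For wort, 1 of them, TPS3, had an unadjusted p under 0.05 at 0.55, against 2816 of all 5635 genes. Among the 10 stationary phase and stress genes, none was called for wort and SPI1 (-0.88) and SSA3 (-0.63) were lower in maltose wort at the adjusted p alone (0.0156 and 0.0272). The list had no shared direction, with 5 wort effects above 0 and 5 below, from -0.88 to 1.21 (median 0.13).

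In the remaining comparisons few genes of these lists were called. For the Flavourzyme effect, the interaction and Flavourzyme in glucose wort none of the 43 was called, against 0.0355%, 0.0355% and 0% of all genes. PHO85, SGA1, SNF4, HXK2 and SNZ1 had an unadjusted p under 0.05 for the Flavourzyme effect, as had 16% of all genes. For wort without Flavourzyme 6 of the 43 were called, against 28.6% of all genes. SNF4 (1.39, limma adjusted p = 0.0126), RIM15 (0.78, 0.0293) and PHO85 (0.78, 0.0300) were higher in maltose wort. MSN4 (-1.65, limma adjusted p = 0.0220), SPI1 (-1.06, 0.0173) and SSA3 (-0.95, 0.0198) were lower there. These 6 calls were lost without either maltose control replicate, fits in which nearly all calls over all genes were lost. That of MSN4 was also lost in the 2-way test without moderation (adjusted p = 0.105). Of the 14 alternatives, the call was kept in 12 for SNF4, in 10 for RIM15, SPI1 and SSA3 and in 9 for PHO85 and MSN4.

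The 10 glycogen genes differed in profile. After centring each gene on its own mean, their mean profile over the 7 arrays, to which each of them contributes, correlated at 0.83 with GSY1, 0.80 with PGM2, 0.76 with GLG1, 0.64 with GLC3 and 0.53 with GSY2, and at 0.22 or less with UGP1, GLG2, GPH1, GDB1 and GAC1. The genes outside the pathway with the profile most like it were TOS8 (r = 0.988), YLR257W (0.978), SFA1 (0.964), CTS1 (0.964) and YOL163W (0.961, below background), picked as the highest of all genes. These correlations describe 7 arrays that share a normalization.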

How the data were processed

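RNA was extracted with RNeasy and hybridized to Affymetrix Yeast Genome 2.0 arrays, 1 array per sample. The authors made the deposited log2 signals with Microarray Suite and the rma function of affy (background correction, quantile normalization over all probe sets and median polish), the version of affy not being given in the sources used. These values were used as deposited. Of 10928 probe sets, 5685 named S. cerevisiae genes by their gene identifiers, and for 48 genes with several the one of highest mean was kept.

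For all 5635 genes a limma 3.58.1 model (R 4.3.3) was fitted to the means of the 4 groups (3 residual and 2.78 prior degrees of freedom, prior SD 0.251), with two-sided moderated tests and Benjamini-Hochberg adjustment within each comparison. The threshold for a call was an adjusted p of 0.05, to which a log2 fold change of 1.30 was added for the wort effect and the Flavourzyme effect, following the study's methods. Since 1.30 is also -log10(0.05), its use as a fold threshold may not have been intended, and wort counts are given without it too. The single maltose Flavourzyme array was assumed to vary like the others. The number of arrays limits the precision.

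The glycogen genes and lists were chosen with earlier results of these data known. All 10 glycogen genes are named. From the other lists, genes called and otherwise at most the 3 of smallest p per comparison were eligible to be named, as were the 5 genes of most similar profile. Genes named to show the glucose control replicates and the chromosome XVI order, which is from knowledge of the S. cerevisiae genome, were chosen after their values were seen. Alternatives were repeated quantile normalization, centring, a background filter, averaged probe sets, trended and robust moderation, the methods' 2-way test, a replicate block and leaving out each array. The fit was tested on simulated data.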

Additional observations from a re-analysis of the deposited data

Results flagged for a closer look

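For the glycogenin genes GLG1 and GLG2 the maltose and glucose arrays did not overlap and ran in opposite directions with and without Flavourzyme, which was the case for 13.3% of all genes. With Flavourzyme the maltose array was above both glucose arrays, whereas without Flavourzyme both maltose arrays were below both glucose arrays. The interaction was 0.26 for GLG1 (SE 0.28, limma adjusted p = 0.670) and 0.95 for GLG2 (SE 0.28, adjusted p = 0.169), so neither passed the threshold, and the direction with Flavourzyme rests on 1 array. For GLG1 that direction turned under both alternative scalings. For GLG2 the interaction passed without glucose control replicate 1 (0.92, adjusted p = 0.0197) or replicate 2 (0.98, adjusted p = 0.0126), fits in which 31.3% and 39% of all genes passed.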

How the results depend on the processing

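The wort effect of GSY1 stayed negative in all 14 alternatives (-2.76 to -2.51, adjusted p 0.000150 to 0.0555), as did that of GLC3 (-0.77 to -0.52, adjusted p 0.00301 to 0.156). For GSY1 the Flavourzyme effect stayed positive (1.11 to 1.31, adjusted p 0.00777 to 0.847). Of the 10 glycogen genes, 2 passed for wort with the adjusted p alone, against 34.3% of all genes. For Flavourzyme in maltose wort 2 passed with quantile normalization repeated over the S. cerevisiae probe sets (GLG2 and GSY1), against 7.51% of all genes. For wort without Flavourzyme 2 passed (GLC3 and GSY1) with arrays centred on the median gene, against 27.1% of all genes. The same 2 passed with trended and robust moderation, against 28.3%. For wort with Flavourzyme 0 passed in the 2-way test without moderation (GSY1 adjusted p = 0.0885), against 0.248% of all genes.

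Leaving out 1 array at a time gave 0 to 1 genes for wort, 0 to 1 for Flavourzyme, 0 to 3 for the interaction, 0 to 3 for Flavourzyme in glucose wort, 0 to 4 for Flavourzyme in maltose wort, 0 to 5 for wort without Flavourzyme and 0 to 6 for wort with Flavourzyme. For the last 5 comparisons the high ends came without a glucose control array, when the spread between those replicates leaves the fit and far more of all genes passed. Without replicate 1 or 2 of the glucose control these were 31.3% and 39% of all genes for the interaction, 9.99% and 33.3% for Flavourzyme in glucose wort, 38.4% in both fits for Flavourzyme in maltose wort, 66% and 48.9% for wort without Flavourzyme and 54.1% in both fits for wort with Flavourzyme. The 6 genes of that last comparison were GLC3, GLG2, GSY1, GSY2, PGM2 and UGP1. The GLG2 Flavourzyme effect ranged over -0.034 to 0.45 and the HXK2 wort effect over -1.83 to 0.11 with 1 array left out. Both turned their sign (-0.034 and 0.11) without the maltose Flavourzyme array, and the comparisons that need this array could not be computed.

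The deviations of same-numbered arrays from their group means correlated at 0.182, 0.102 and 0.00736. With 1 pair of duplicates per group this cannot tell whether replicate numbers pair the samples. The main fit held no replicate block. With a replicate block 0 glycogen genes passed for wort with Flavourzyme (GSY1 adjusted p = 0.102), and 0 of all genes did, HXK1 included (0.102). With the block PHO85 was not called for Flavourzyme in maltose wort (0.104), where 0.0355% of all genes were, nor for wort without Flavourzyme (0.0515). For the overall wort effect 417 of all genes passed with it. Over all genes the wort calls numbered 496 (295 higher and 201 lower). They were 390 (127 and 263) with repeated quantile normalization, 458 (176 and 282) with centring and 138 in the 2-way test, and 0 to 912 with 1 array left out. The median gene's wort effect was 0.07 with repeated quantile normalization and 0.11 with centring. The 4 groups held 7 arrays, which limits what could be called.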
